A study of Mus musculus with 24 samples.

Results

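In mouse adipose tissue, 10 genes of cytokine signalling were described: 8 chains of class I cytokine receptors and 2 Janus kinases. The receptor chains were Prlr and Lepr, which encode the prolactin and leptin receptors; Il6st, Il6ra, Osmr and Lifr of the interleukin-6 family; and Csf2ra and Csf2rb, which encode the alpha and beta chains of the receptor for granulocyte-macrophage colony-stimulating factor (GM-CSF). The kinases were Jak2 and Tyk2. The genes were chosen by name, as a family, with earlier results of these data known. All 10 were found among the 24421 gene symbols of the count files. Total RNA was sequenced from C57BL/6 mice aged 2 months that were wild type (WT) or carried STAT5B with 1 tyrosine of its SH2 domain replaced by phenylalanine (Y665F) or by histidine (Y665H). With both sexes of the 3 genotypes there were 6 groups of 4 libraries, 24 in all. The labels name no fat depot, do not say whether the mutant mice carried 1 or 2 mutant alleles, and do not say that each library came from a separate animal. The p-values therefore measure the spread between these libraries, which may be partly technical.

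Class I cytokine receptors have no kinase domain of their own. Their inner parts hold Janus kinases, which phosphorylate the receptor and then STAT proteins once a ligand has brought the chains together. STAT5B is one of the STATs activated in this way, classically downstream of JAK2 at the growth hormone and prolactin receptors and at receptors that use the beta chain encoded by Csf2rb. The chain encoded by Il6st is shared by the receptors for interleukin-6, oncostatin M and leukaemia inhibitory factor and signals mainly to STAT3. In fat, leptin is made by adipocytes, while the GM-CSF receptor is known mainly from myeloid cells.

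Levels are given as counts scaled to 1e+06 gene counts per library (CPM), and log2 fold changes come from the quasi-likelihood test of edgeR, with p-values adjusted over all tested genes by Benjamini-Hochberg. A gene is termed called when its adjusted p was under 0.05. Counts of genes at an unadjusted p under 0.05 are given without the share of all tested genes that passed it. They therefore do not describe the members or the lists alone. Libraries held 21.0 to 41.3 M gene counts (M is 1e+06; median 34.6 M), and the 10 genes, termed members, were covered by 55 to 21113 counts per library. All 12 adipocyte markers averaged 1 CPM or more in each group. Some libraries stood apart in the markers of other tissues. The summed level of 8 epididymis genes ran from 0.0576 CPM in WT male 1 to 8024 CPM in WT male 2, and was at most 0.824 CPM in females. WT male 2 also had the lowest adipocyte sum (14747 CPM). Y665F female 3 had the highest epithelium sum among females (1477 CPM) and the lowest adipocyte sum among them (22398 CPM). Its sum of 10 progenitor or fibroblast genes, 18127 CPM, was the highest of all libraries. Sums of 12 skeletal muscle genes were 96.9 to 1098 CPM in WT females, 33.6 to 180 CPM in Y665F females and 26.1 to 1945 CPM in Y665H females. Sums over 10 macrophage genes were 1013 to 1410 CPM in WT females, 1415 to 2272 CPM in Y665F females and 735 to 1093 CPM in Y665H females. In males they were 686 to 1277 CPM in WT, 1229 to 1876 CPM in Y665F and 1192 to 1678 CPM in Y665H. Between the mutants the adipocyte sums differed the opposite way: they were 42272 to 49731 CPM in Y665H females and 22398 to 39180 CPM in Y665F females, without overlap, and had medians of 40413 and 31731 CPM in the corresponding males, which overlapped. Reads assigned to no gene were 24.8 to 29.9% of counts in Y665H females and 32.5 to 35.9% in Y665F females. In such bulk tissue, fewer cells of a type and less RNA per cell cannot be told apart.

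Levels were first compared between genes, which requires correction for length. Counts were divided by the merged exon length of each gene in the GENCODE annotation of the mouse build GRCm38. This is the same assembly as mm10, which the submitters' processing notes name. The merged length takes in the exons of all annotated transcripts, from 2871 bases for Csf2ra to 15339 bases for Prlr. The annotation used for the counting is not given, so the order of the genes depends on these lengths. In WT females the most abundant chain was Il6st, at 42.9 ± 4.51 CPM per kb (SD, n = 4), followed by Lifr at 20.3 ± 1.76 CPM per kb and Csf2ra at 14.9 ± 3.01 CPM per kb. Jak2 was at 10.7 ± 1.39 CPM per kb and Tyk2 at 7.00 ± 0.891 CPM per kb. The lowest were Prlr, at 2.15 ± 0.316 CPM per kb, and Lepr, at 1.50 ± 0.263 CPM per kb. Neighbours in this order whose libraries overlapped, and so did not differ beyond their spread, were Csf2ra and Jak2, then Il6ra, Csf2rb and Tyk2, and finally Prlr and Lepr. Il6st ranked highest and Lepr lowest in each of the 6 groups. Csf2ra had ranks from 2 to 4: it had rank 2 in Y665F males at 32.5 ± 2.40 CPM per kb, where its libraries overlapped those of Il6st, and rank 4 in Y665H females at 8.24 ± 1.38 CPM per kb.

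**Figure D1:**
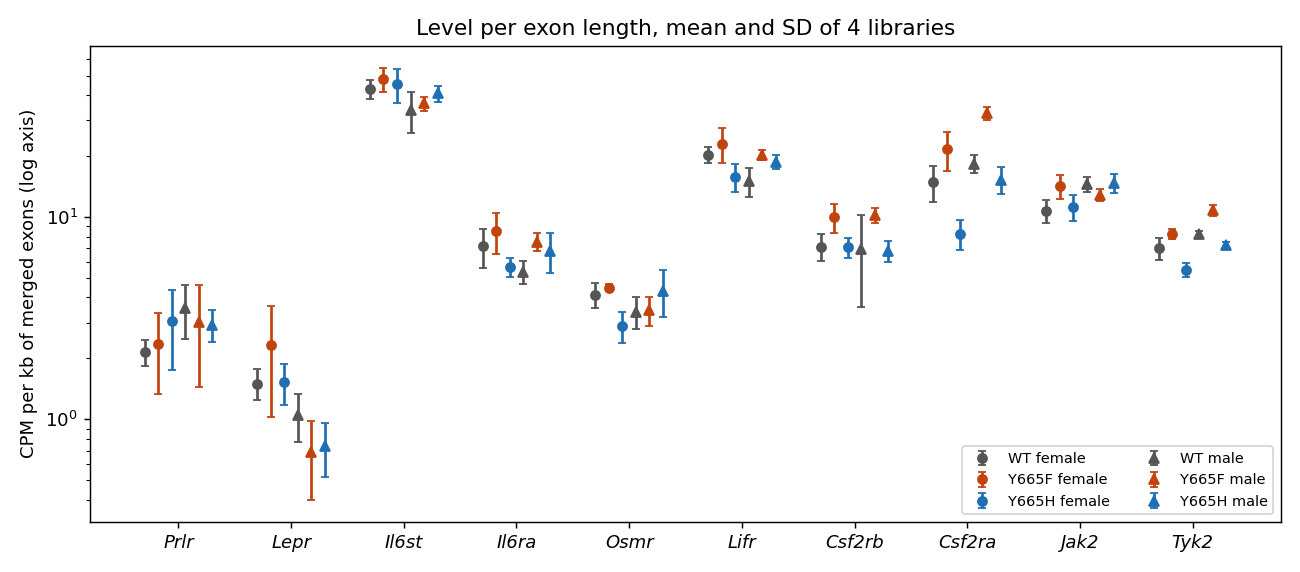
Level per kb of exon of the 10 genes in the 6 groups (log axis, CPM per kb; points are means and bars the SD of 4 libraries). Il6st lies highest and Lepr lowest in each group, and Csf2ra takes different places in the order.

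Of Lep, Lif, Osm, Il6, Csf2 and Prl, which encode the best known ligands of these receptors, Lep and Lif averaged above 1 CPM and the other 4 did not. Lep, which encodes leptin, was at 1213 ± 145 CPM in WT females, 1034 ± 362 CPM in Y665F females and 577 ± 154 CPM in Y665H females (SD, n = 4 each). In males it was at 681 ± 357 CPM in WT, 1437 ± 562 CPM in Y665F and 1637 ± 306 CPM in Y665H. Lep fell in Y665H against WT females (log2 fold change -1.06, SE 0.18, adjusted p = 0.025 in edgeR) and was not called in males (1.27, SE 0.40, adjusted p = 0.402). The difference between these effects was 2.33 (SE 0.48) and was not called (adjusted p = 0.07 in edgeR). Lif had means of 3.57 to 5.58 CPM. Osm, the gene of oncostatin M, had means of 0.162 to 0.736 CPM and was lower in Y665H than in Y665F females (log2 fold change -1.70, SE 0.35, adjusted p = 0.0139 in edgeR). Il6 and Csf2, which encode interleukin-6 and GM-CSF, did not exceed 0.148 and 0.384 CPM in any library and were not tested. Prl had no count in any library, so that 3 counts, a limit for counting error alone, would correspond to 0.0726 to 0.143 CPM. The ligand list held 17 genes, of which 6 to 12 passed the filter on low counts. Apart from Lep and Osm in the comparisons given, no tested ligand was called in any of the 9 comparisons.

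None of the 10 members was called for Y665F against WT in females, where 3.33% of all tested genes were called; 2 members had an unadjusted p under 0.05 (edgeR), and DESeq2 called 0. For Y665H against WT in females, 1 of 10 was called lower, against 1.8% of all genes. Without WT female 3 there were 3, with Osmr (adjusted p = 0.0325) and Tyk2 (adjusted p = 0.0404) added by edgeR, and calls in either direction over all genes rose from 3.34 to 8.12%. Leaving out any of 6 other libraries of the 8 gave 0 members. The share of all genes called in those 6 fits is not given here, so this count does not describe the members alone. Between the mutants, 3 of 10 were called lower in females, against 8.59% of all genes, and 2 of 10 in males, against 0.901%. No gene at all was called in males for Y665F or Y665H against WT by edgeR (0%). There, 4 members had an unadjusted p under 0.05 for Y665F and 0 for Y665H, and DESeq2 called 3 members (Il6ra, Csf2ra and Tyk2) for Y665F, against 7.03% of all genes, and 0 for Y665H, against 0.726%. Without WT male 1, edgeR called Csf2ra (adjusted p = 0.0407) and Tyk2 (adjusted p = 0.0425) in Y665F males, and 3.43% of all genes. In WT males against WT females 1 of 10 was called lower, against 5.95% of all genes, and without WT male 1 there were 5 (Prlr higher; Osmr, Lifr, Il6st and Il6ra lower). Calls in either direction over all genes rose with it, from 13.1 to 31.1%. WT male 1 had an epididymis sum of 0.0576 CPM, while WT male 2, 3 and 4 had 8024, 2404 and 873 CPM. Fits without WT male 1 thus keep only WT males with that signal, and its part in their calls was not tested. The median log2 fold change of the 10 members was -0.42 for Y665H against Y665F females, where the median of all tested genes was -0.03, and -0.12 in males, where it was -0.02. Under scaling by library totals the all-gene median in females moved to -0.18, and 6 members were then called lower (Osmr, Lifr, Il6ra, Csf2rb, Csf2ra and Tyk2). The same 6 were called without Y665F female 3. Over all genes, 20.7% were called in either direction under library totals and 18.1% without Y665F female 3, against 17.4% before. Of these calls 75.1% were lower under library totals, against 49.5% before.

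The groups did not overlap in CPM for 0 of 10 members in Y665F against WT females (22.9% of all tested genes did so) and for 1, Csf2ra, in Y665H against WT females (13.3%). In males they were apart for 4 members in Y665F against WT (Csf2ra, Tyk2, Il6ra and Lifr; 8.85%) and for 1, Tyk2, in Y665H against WT (3.6%). Between the mutants 3 members were apart in females (Csf2ra, Tyk2 and Osmr; 28.1%) and 3 in males (Csf2ra, Tyk2 and Csf2rb; 12.5%), and between WT sexes 4 were (Prlr, Jak2, Tyk2 and Lifr; 25.2%).

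**Figure D2:**
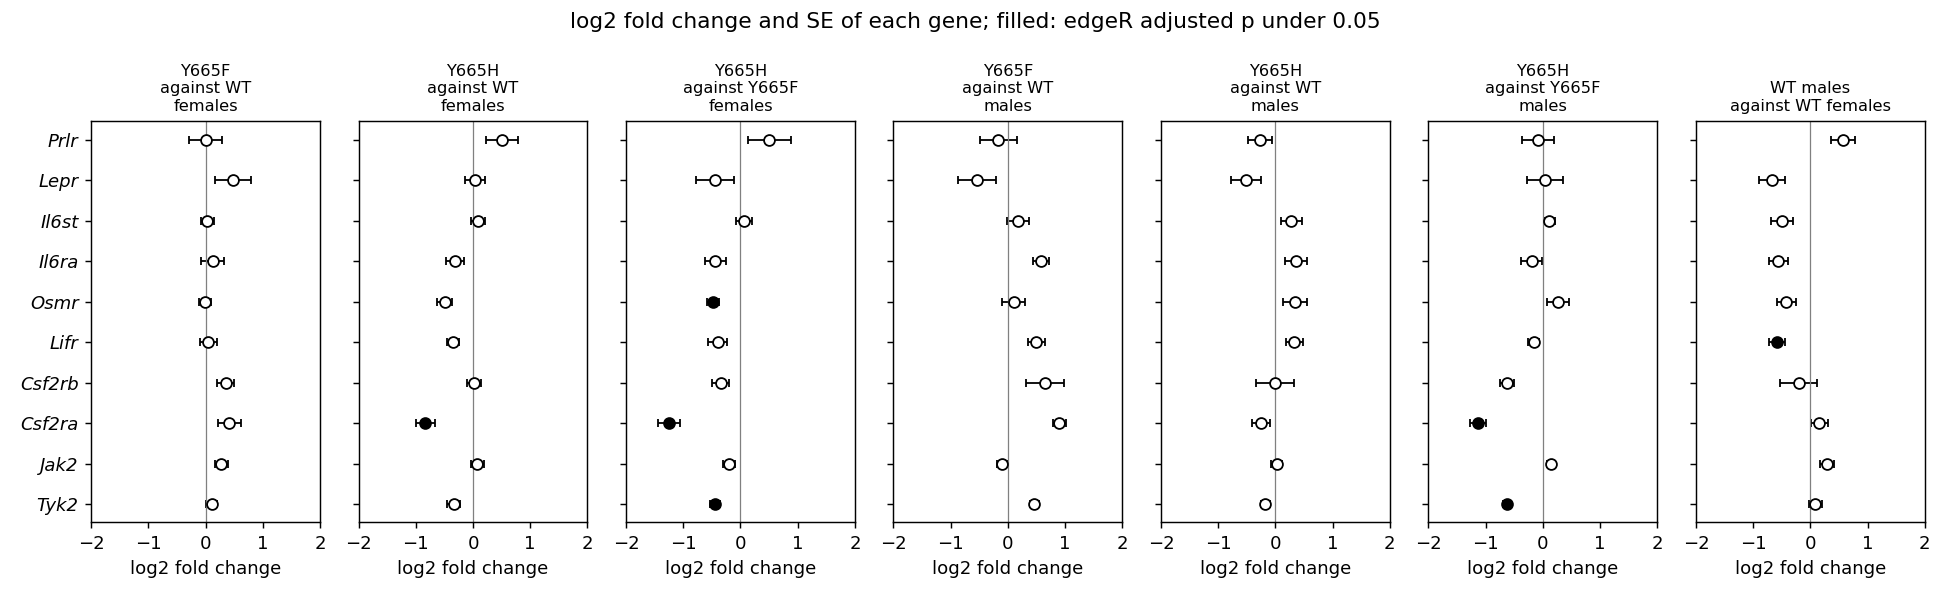
log2 fold change of each of the 10 genes in the 7 comparisons of 2 groups (points, with bars of 1 SE; filled points were called by edgeR at an adjusted p under 0.05). The called points are Csf2ra, Tyk2 and Osmr between the mutants, Csf2ra in Y665H against WT females, and Lifr between WT sexes.

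The clearest differences among the 10 genes were in Csf2ra and Tyk2, and they lay between the mutants. Y665H libraries had less of both than Y665F libraries in each sex. The part that the differing adipocyte sums and shares of unassigned reads have in this was not tested. Csf2ra lies on chr19:61223957-61228429 (GRCm38, minus strand) and Tyk2 on chr9:21104068-21131243 (minus strand). The 250 bases before their RefSeq starts are shown with a window of Prlr, because they allow a direct look for the palindrome TTCNNNGAA that STAT5 proteins are known to bind. The windows lie at chr19:61228419-61228668 (minus strand), chr9:21131276-21131525 (minus strand) and chr15:10223656-10223905 (plus strand) of GRCm38.p6, are written 5′ to 3′ along the gene, and have the palindrome in capitals.
Csf2ra: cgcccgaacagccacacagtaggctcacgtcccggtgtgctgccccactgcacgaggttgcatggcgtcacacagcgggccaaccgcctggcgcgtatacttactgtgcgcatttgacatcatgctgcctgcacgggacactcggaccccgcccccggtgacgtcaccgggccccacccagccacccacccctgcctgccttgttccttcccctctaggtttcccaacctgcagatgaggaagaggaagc
Tyk2: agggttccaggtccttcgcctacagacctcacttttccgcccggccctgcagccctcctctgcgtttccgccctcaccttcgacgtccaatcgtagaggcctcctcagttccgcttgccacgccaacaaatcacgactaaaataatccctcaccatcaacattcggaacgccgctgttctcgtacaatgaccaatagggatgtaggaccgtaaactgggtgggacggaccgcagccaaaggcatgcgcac
Prlr: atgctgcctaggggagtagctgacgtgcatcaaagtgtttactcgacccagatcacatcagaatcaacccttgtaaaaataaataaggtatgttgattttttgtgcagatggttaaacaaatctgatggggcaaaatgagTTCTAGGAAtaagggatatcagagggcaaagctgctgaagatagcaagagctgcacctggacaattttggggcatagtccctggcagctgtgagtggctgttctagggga
These letters occurred in 1 of the 13 windows listed for 9 of the 10 members, the Prlr window shown, as TTCTAGGAA with its first base 110 bases before the start. Among all 32851 windows of the same length, 7.02% held the palindrome, which reads alike on both strands. No window is listed for Csf2rb. A match or its absence describes these letters alone and was not tested for binding.

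Csf2ra encodes the chain that binds GM-CSF. Its level in the WT female libraries was 49.9, 35.2, 35.2 and 50.4 CPM. In Y665F females it was 76.9, 67.8, 44.6 and 59.0 CPM, and in Y665H females 24.8, 28.2, 22.8 and 18.8 CPM. All 4 Y665H libraries thus lay below all WT and all Y665F libraries, while WT and Y665F overlapped. The corresponding male values were 57.0, 46.6, 49.8 and 57.5 CPM in WT, 103, 92.9, 91.6 and 85.9 CPM in Y665F, and 35.2, 50.8, 46.4 and 43.2 CPM in Y665H. All Y665F males exceeded all WT and Y665H males, and WT and Y665H males overlapped.

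**Figure D3:**
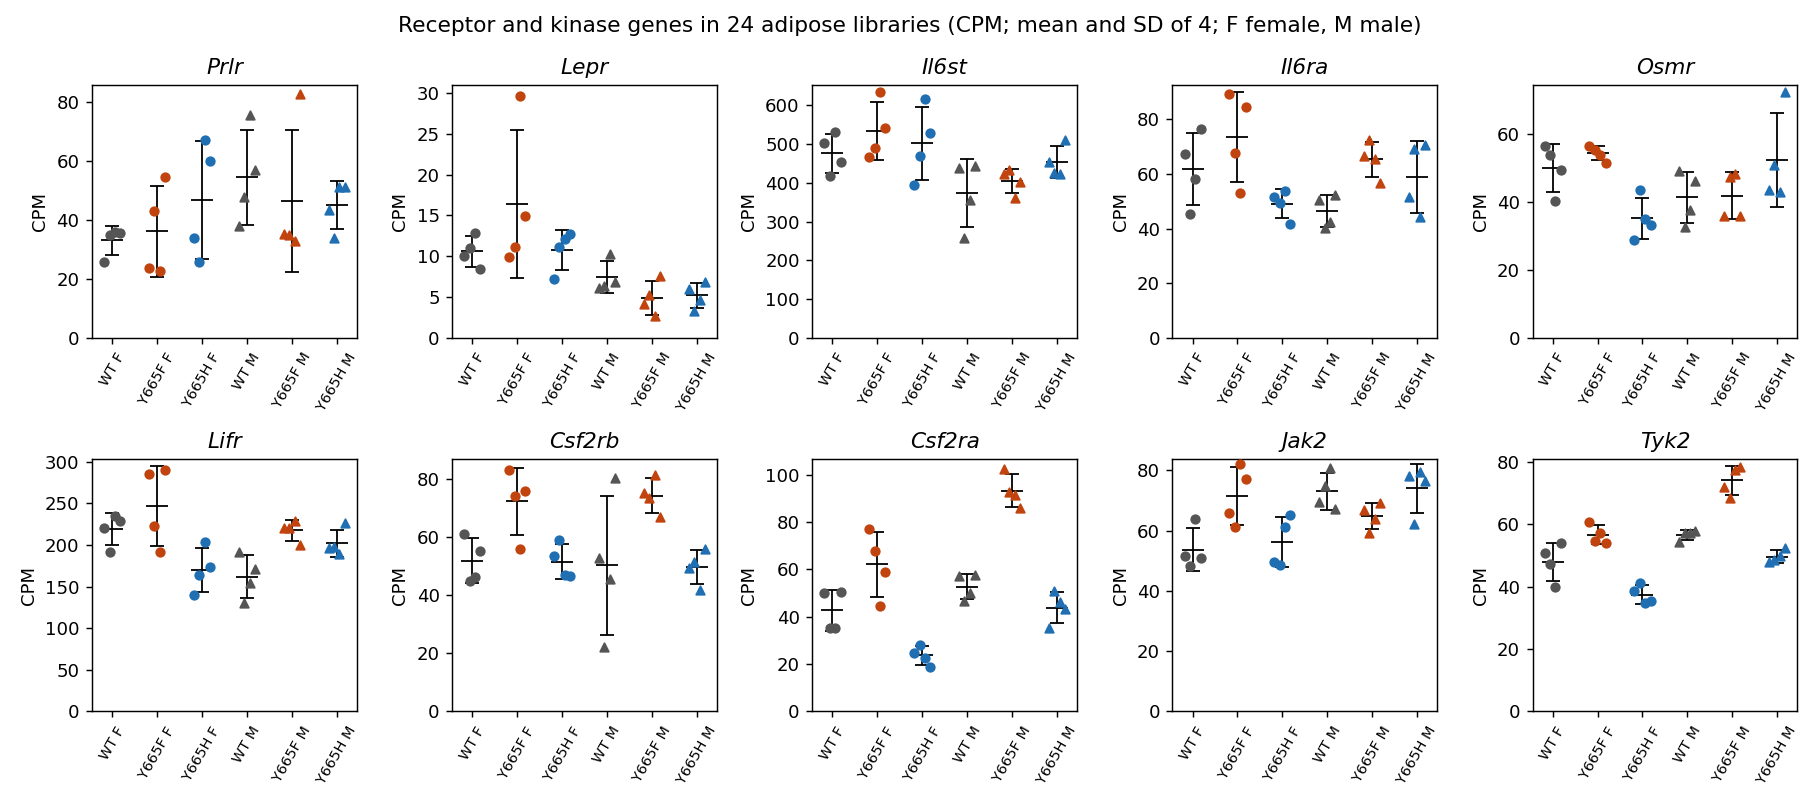
Level of each of the 10 genes in the 24 libraries (CPM; points are libraries, bars are the mean and SD of 4; F stands for female and M for male; each panel has its own axis). For Csf2ra and Tyk2, the Y665H points lie below the Y665F points in each sex.

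Between the mutants, Csf2ra was lower in Y665H by a log2 fold change of -1.25 (SE 0.20, adjusted p = 0.00533 in edgeR) in females and of -1.13 (SE 0.14, adjusted p = 0.0154) in males, 0.421-fold and 0.457-fold the Y665F level. Against WT females, Csf2ra fell in Y665H (log2 fold change -0.83, SE 0.17, adjusted p = 0.0379 in edgeR), and in Y665F it was at 0.42 (SE 0.20, adjusted p = 0.223). Against WT males, the value was 0.90 in Y665F (SE 0.12, adjusted p = 0.08 in edgeR) and -0.25 in Y665H (SE 0.16, adjusted p = 0.438), neither of them called. The comparisons with WT share the WT libraries within a sex. The female difference between the mutants was called in all 15 alternative analyses. In males the call was lost without any of Y665F male 1, 2 or 3 or Y665H male 3 (adjusted p 0.054 to 0.0816) and with the replicate number as a block (adjusted p = 0.0828). The call against WT females was lost without WT female 1 or 4 or any single Y665H female (adjusted p 0.0502 to 0.127) and with the block (adjusted p = 0.0814).

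Csf2rb encodes the beta chain, which carries the signal for GM-CSF and for interleukins 3 and 5, and lies on chr15:78325752-78353847 (GRCm38, plus strand). Its means were 51.9 ± 7.74 CPM in WT females, 72.3 ± 11.6 CPM in Y665F females and 51.6 ± 5.94 CPM in Y665H females. In males they were 50.3 ± 24.0 CPM in WT, 74.3 ± 6.07 CPM in Y665F and 49.7 ± 5.84 CPM in Y665H. The extremes of the wide WT male group were WT male 2, at 22.1 CPM, and WT male 4, at 80.5 CPM. Y665F males, at 66.8 to 81.5 CPM, did not overlap Y665H males, at 42.0 to 56.0 CPM, yet Csf2rb was not called there (log2 fold change -0.63, SE 0.12, adjusted p = 0.0519 in edgeR). It passed without Y665F male 4 (adjusted p = 0.0325), under library totals (adjusted p = 0.0487) and with DESeq2 (adjusted p = 0.000646). In females the difference between the mutants was -0.34 (SE 0.15, adjusted p = 0.145 in edgeR), and without Y665F female 3 it was called at -0.46 (adjusted p = 0.0212). The values of Csf2rb are uncertain because of its near-copy Csf2rb2: 18.4% of the 50-base windows of the longest Csf2rb transcript occur unchanged in Csf2rb2 transcripts. Csf2rb2 itself had means of 17.1 to 31.7 CPM and was not called in any comparison.

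The count ratio of Csf2ra to Csf2rb does not depend on scaling between libraries. It was chosen after the levels had been seen. In females it averaged 0.817 ± 0.0659 in WT, 0.853 ± 0.0771 in Y665F and 0.457 ± 0.0370 in Y665H (SD, n = 4). The 4 Y665H ratios, 0.464, 0.477, 0.483 and 0.403, were below all 8 others, the lowest of which was 0.760. In males it averaged 1.26 ± 0.0997 in Y665F and 0.895 ± 0.184 in Y665H, again without overlap, while WT males ranged from 0.714 to 2.11, the highest being WT male 2. The exact two-sided permutation test gave p = 0.0286 for Y665H against WT and against Y665F in females and for Y665H against Y665F in males, the smallest value 4 against 4 libraries allow. Adjusted over 7 comparisons, each became 0.0667, above the threshold.

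Macrophage markers were lower along with Csf2ra between the female mutants. Between the mutants in females, 10 of 10 macrophage genes had negative log2 fold changes and 5 were called lower, against 8.59% of all genes. In males 9 of 10 were negative and none was called by edgeR (1 of 10 had an unadjusted p under 0.05). Of all tested genes 0.901% were called lower between the male mutants. Against WT males the medians differed in opposite directions. In Y665H males the macrophage sum had the higher median (1289 against 1071 CPM) and Csf2ra the lower (44.8 against 53.4 CPM). Both overlapped between these groups, and Csf2ra was not called there (adjusted p = 0.438 in edgeR). The lowest WT male macrophage sum, 686 CPM, was that of WT male 2, the library with the most epididymis signal. Csf2ra per 1000 CPM of the macrophage sum, also chosen after the data had been seen, averaged 36.3 ± 2.58 CPM in WT females, 34.8 ± 4.43 CPM in Y665F females and 24.5 ± 2.07 CPM in Y665H females. In males it averaged 53.4 ± 10.4 CPM in WT, 59.5 ± 9.16 CPM in Y665F and 32.7 ± 6.08 CPM in Y665H. On this scale Y665H lay below both other genotypes without overlap in each sex (exact permutation p = 0.0286 for each of the 4 comparisons, 0.0686 after adjustment over 12). WT and Y665F overlapped in both sexes on the same scale (exact permutation p = 0.514 in females and 0.343 in males).

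**Figure D4:**
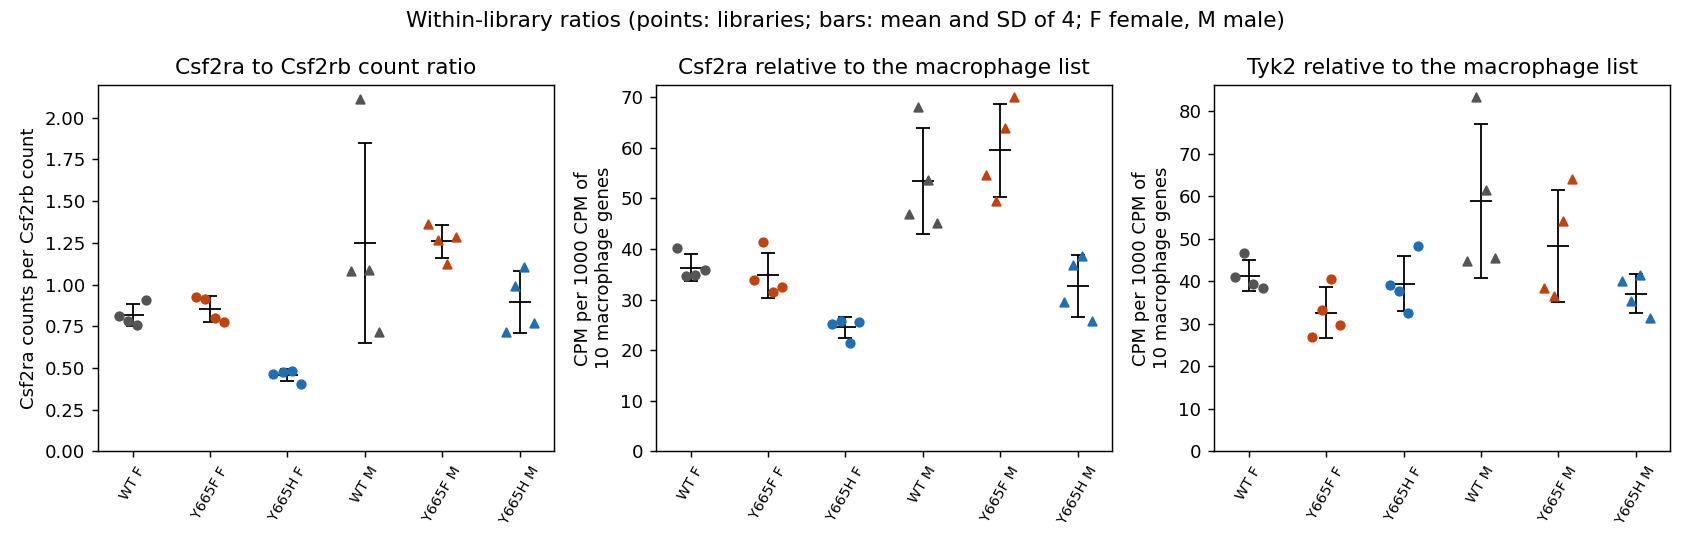
Count ratio of Csf2ra to Csf2rb, and Csf2ra and Tyk2 per 1000 CPM of the summed macrophage genes, by library (points) with the mean and SD of 4 (bars). Y665H libraries are lowest for both Csf2ra scales in females, and WT male 2 has the highest count ratio.

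Markers of lymphocytes differed in the same direction. The summed level of 10 T and NK cell genes was 24.1 to 34.4 CPM in Y665F females and 5.07 to 26.5 CPM in Y665H females. Of these genes 5 of 10 were called lower in females, where 8.59% of all tested genes were. In males the sums were 30.9 to 63.3 CPM and 4.86 to 22.9 CPM, with 1 of 10 called lower, against 0.901% of all tested genes. Of the 7 tested B cell genes, 5 were called lower in females and none in males by edgeR (2 of them had an unadjusted p under 0.05 in males). Sums of 10 eosinophil and mast cell genes overlapped between the mutants, at 15.9 to 25.4 CPM in Y665F females and 12.6 to 25.8 CPM in Y665H females. In males they were 8.72 to 18.9 CPM in Y665F and 15.6 to 30.2 CPM in Y665H, with the higher median in Y665H (21.8 against 16.1 CPM). Of the 7 neutrophil genes found, 2 averaged 1 CPM or more in WT males and 1 in each other group. Their sum was at most 4.38 CPM in any female library. In WT males it was 1.78 to 268 CPM (median 159) and in Y665F males at most 11.6 CPM. Among Y665H males it reached 141 CPM, in Y665H male 3 (median 6.42). The epididymis sum was 2404 CPM in WT male 3, which had the 268 CPM, and 1207 CPM in Y665H male 3. It was 0.0576 CPM in WT male 1, which had the 1.78 CPM. Y665F male 4, with an epididymis sum of 960 CPM, had a neutrophil sum of 11.6 CPM. These neutrophil sums rest on few genes and do not give a number of neutrophils. The part of the cells of these lists in the receptor differences was not tested.

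Tyk2 encodes a Janus kinase that serves the receptors for type I interferon, interleukin-12 and members of the interleukin-6 family. Its levels were 50.8, 47.3, 39.9 and 54.1 CPM in WT females. They were 60.9, 54.8, 57.4 and 53.9 CPM in Y665F females and 38.6, 41.2, 34.7 and 35.5 CPM in Y665H females. In males they were 54.3, 57.1, 57.1 and 58.0 CPM in WT, 72.0, 68.5, 77.5 and 78.5 CPM in Y665F, and 47.8, 48.7, 49.8 and 52.6 CPM in Y665H. The 3 male groups did not overlap, with Y665F highest and Y665H lowest. In females Y665F lay above Y665H, and WT overlapped both.

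Between the mutants, Tyk2 was lower in Y665H by a log2 fold change of -0.45 (SE 0.09, adjusted p = 0.01 in edgeR) in females and of -0.63 (SE 0.07, adjusted p = 0.0126) in males. No difference from WT was called. Tyk2 stood at -0.34 (SE 0.11, adjusted p = 0.111 in edgeR) in Y665H females, 0.11 (SE 0.10, adjusted p = 0.515) in Y665F females, 0.46 (SE 0.08, adjusted p = 0.0977) in Y665F males and -0.18 (SE 0.08, adjusted p = 0.402) in Y665H males. The female call held in all 15 alternative analyses. The male call was lost without Y665F male 1 or 3 or Y665H male 1 (adjusted p 0.0531 to 0.0679) and with the replicate block (adjusted p = 0.0834). Of the exon length of Tyk2, 8.07% overlaps the antisense gene 1700084C06Rik, and since the strand setting of the counting is not given in the sources used here, reads from that stretch are uncertain.

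Relative to the macrophage sum, the mutants overlapped in Tyk2. It averaged 32.6 ± 5.95 CPM per 1000 in Y665F females and 39.5 ± 6.56 CPM in Y665H females, and 48.2 ± 13.1 CPM and 37.1 ± 4.63 CPM in the corresponding males (exact permutation p = 0.2 and p = 0.229). Y665H males lay below WT males, at 58.7 ± 18.1 CPM per 1000, without overlap (exact permutation p = 0.0286, adjusted 0.0686). Whether Csf2ra and Tyk2 differ on this scale was not tested.

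Jak2, the kinase of the prolactin, leptin and GM-CSF receptors, was not called in the edgeR tests above. Between WT sexes it was called higher in males under library totals (log2 fold change 0.44, adjusted p = 0.0387) and in a fit of all 24 libraries (0.28, adjusted p = 0.0419). Its means were 53.7 ± 7.00 CPM in WT females, 71.5 ± 9.63 CPM in Y665F females and 56.2 ± 8.32 CPM in Y665H females. In males they were 73.1 ± 6.12 CPM in WT, 64.8 ± 4.30 CPM in Y665F and 74.0 ± 8.07 CPM in Y665H. The lower mutant mean was that of Y665H in females and that of Y665F in males. For Y665F against WT the value was 0.28 (SE 0.11, adjusted p = 0.164 in edgeR) in females and -0.10 (SE 0.09, adjusted p = 0.569) in males, and the difference between them was -0.41 (SE 0.15, adjusted p = 0.158). Of the other Janus kinases, Jak1 had means of 222 to 320 CPM and Jak3 of 51.8 to 72.3 CPM, and neither was called in any of the 9 comparisons. Their smallest adjusted p was 0.058, for Jak1 in WT males against WT females (log2 fold change -0.38, SE 0.11, edgeR).

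Osmr, the chain specific to oncostatin M, differed between the mutants in females. Its levels were 56.4, 55.3, 53.8 and 51.5 CPM in Y665F females and 28.8, 43.3, 35.0 and 33.2 CPM in Y665H females, without overlap. WT females, at 56.3, 53.7, 40.3 and 49.4 CPM, overlapped Y665F and Y665H. Osmr was lower in Y665H than in Y665F by a log2 fold change of -0.49 (SE 0.11, adjusted p = 0.0167 in edgeR), a call lost without Y665F female 1 (adjusted p = 0.059) and in a fit of all 24 libraries (adjusted p = 0.0747). Against WT the female value was -0.50 (SE 0.13, adjusted p = 0.0711 in edgeR), not called. In males the means were 41.3 ± 7.58 CPM in WT, 41.8 ± 6.93 CPM in Y665F and 52.3 ± 13.7 CPM in Y665H, with Y665H male 4 at 72.2 CPM, and the groups overlapped.

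Lifr, the receptor chain for leukaemia inhibitory factor, differed between the sexes in WT. WT females had 220, 192, 235 and 228 CPM and WT males had 192, 130, 154 and 171 CPM, with the highest male just below the lowest female. That male, WT male 1, had an epididymis sum of 0.0576 CPM. WT male 2, 3 and 4, with lower Lifr, had epididymis sums of 8024, 2404 and 873 CPM. The part of this signal in the difference between the sexes was not tested. The log2 fold change of males against females was -0.58 (SE 0.15, adjusted p = 0.0385 in edgeR). Leaving out any WT library other than WT male 1 ended this call (adjusted p 0.0523 to 0.104), and without WT male 2 it was -0.49. Library totals (adjusted p = 0.0625) and the replicate block (adjusted p = 0.0641) ended it too. Y665H females had a mean of 170 ± 26.3 CPM against 219 ± 19.0 CPM in WT females (log2 fold change -0.35, SE 0.11, adjusted p = 0.104 in edgeR). In males both mutants had higher means than WT (162 ± 26.1 CPM), at 217 ± 12.2 CPM in Y665F and 202 ± 16.2 CPM in Y665H. Neither male difference was called (adjusted p = 0.235 and 0.402, edgeR).

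Il6st and Il6ra, which together form the interleukin-6 receptor, were not called in the edgeR tests above. In a fit of all 24 libraries both were called lower in WT males than in WT females (Il6st -0.51, adjusted p = 0.0123; Il6ra -0.58, adjusted p = 0.023), and under library totals Il6ra was called lower in Y665H than in Y665F females (-0.58, adjusted p = 0.038). Il6st had means between 374 ± 87.1 CPM in WT males and 533 ± 74.0 CPM in Y665F females, and every group overlapped every group of the same sex. Il6ra had its lowest mean in WT males, at 46.3 ± 5.94 CPM, and its highest in Y665F females, at 73.5 ± 16.5 CPM. In Y665F males, at 56.7 to 72.2 CPM, Il6ra lay above all WT males, at 40.3 to 52.2 CPM, with a log2 fold change of 0.57 (SE 0.14, adjusted p = 0.155 in edgeR). Of the Il6ra exon length, 2.8% overlaps the antisense gene Gm42809.

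Prlr, whose exons overlap those of Gm21973 over 1.32% of their length, and Lepr were low per length and varied widely within groups. Prlr ranged from 22.8 to 82.8 CPM over the 24 libraries, and its widest groups were Y665F males, at 35.2, 35.0, 33.0 and 82.8 CPM, and Y665H females, at 34.0, 25.7, 67.2 and 60.2 CPM. Every pair of genotypes overlapped within each sex. WT males, at 37.8 to 75.8 CPM, lay above WT females, at 25.8 to 35.9 CPM, with a log2 fold change of 0.57 (SE 0.21, adjusted p = 0.105 in edgeR). The lowest, 37.8 CPM, was WT male 1, which had an epididymis sum of 0.0576 CPM. WT male 2, 3 and 4, with sums of 8024, 2404 and 873 CPM, had Prlr at 47.6, 75.8 and 56.9 CPM. The part of this signal was not tested. Lepr was at 9.85, 11.1, 29.7 and 14.9 CPM in Y665F females, the highest value being that of Y665F female 3. In the other groups it was at 2.62 to 12.9 CPM. Among the 7 comparisons of 2 groups its largest log2 fold change was that of the sexes in WT, at -0.66 for males (SE 0.23, adjusted p = 0.0839 in edgeR). The sexes were not compared within the mutants. There Lepr averaged 16.4 CPM in Y665F females and 4.88 CPM in Y665F males, and 10.8 CPM in Y665H females and 5.20 CPM in Y665H males. Neither gene was called by edgeR in any comparison of all libraries.

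Whether the effect of a mutation differed between the sexes was tested as an interaction over 16 libraries. For Y665F no member was called by edgeR (0% of all genes), with 3 members at an unadjusted p under 0.05, and DESeq2 called 0. For Y665H no member was called by edgeR either (0.0178% of all genes), with 4 members at an unadjusted p under 0.05, and DESeq2 called 2, Osmr and Lifr, against 4.61% of all genes. The largest positive values for Y665H were those of Osmr, at 0.86 (SE 0.26, adjusted p = 0.154 in edgeR), and Lifr, at 0.70 (SE 0.19, adjusted p = 0.115). Positive values mean a higher fold change in males. Prlr had the largest negative value, at -0.75 (SE 0.38, adjusted p = 0.302). Without WT male 1, edgeR called Osmr at 1.00 (adjusted p = 0.0251) and Lifr at 0.84 (adjusted p = 0.00849), and 10.7% of all genes were then called. The WT males kept in that fit had epididymis sums of 873 to 8024 CPM, and the part of that signal was not tested.

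Other genes of the pathway were taken from lists. Between the mutants in females, where 8.59% of all genes were called lower, 14 of 18 other class I receptor chains were tested and 4 were called lower: Il12rb1, a chain of the interleukin-12 and interleukin-23 receptors (log2 fold change -1.69, SE 0.20, adjusted p = 0.00205 in edgeR), Crlf3 (-0.56), Il27ra (-0.92) and Il5ra (-1.96). Il5ra was low throughout, with means of 0.174 to 0.756 CPM. Il12rb1 was also higher in Y665F than in WT females (1.30, SE 0.23, adjusted p = 0.0259) and in WT males than in WT females (1.75, SE 0.43, adjusted p = 0.0366). In males 16 of these chains were tested between the mutants and none was called by edgeR, with 8 at an unadjusted p under 0.05. The count of 8 stands without the share of all genes at that p and does not describe these chains alone.

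Among 10 class II chains, of which 9 were tested, Il10ra, the interleukin-10 receptor chain, was lower in Y665H than in Y665F in females (-1.06, SE 0.19, adjusted p = 0.00857 in edgeR) and in males (-0.79, SE 0.14, adjusted p = 0.0371). Ifngr2, a chain of the interferon gamma receptor, was lower in Y665H females than in WT (-0.49, SE 0.10, adjusted p = 0.0428) and Y665F females (-0.47, SE 0.09, adjusted p = 0.0107). Of all tested genes 8.59% were called lower between the mutants in females, 0.901% in males, and 1.8% in Y665H against WT females. Between WT sexes Il20rb was higher and Il22ra1 lower in males (1.60 and -1.57).

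Of 18 genes acting next to the receptors, 4 were called lower in Y665H than in Y665F females, where 8.59% of all tested genes were. They were Ptprc, the leukocyte phosphatase CD45 (-1.47, SE 0.16, adjusted p = 0.00177, edgeR), Ptpn6, a phosphatase of blood cells (-1.02), Cbl, a ubiquitin ligase (-0.48), and Pias1, a SUMO ligase (-0.28). Ptprc and Ptpn6 were also higher in Y665F than in WT females (1.21 and 0.78), and Ptpn6 in WT males than in WT females (0.90). The part of lymphocytes and macrophages, whose sums are given above, was not tested.

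The genes most like each called member were found by Pearson correlation of log2(CPM + 1) over the 24 libraries, among the 14837 genes that averaged 1 CPM or more. For Csf2ra these were Kiss1r (r = 0.957), Tyk2 (0.941) and Fgd2 (0.94). Fgd2 was at 25.3 ± 4.18 CPM in Y665F females and 9.38 ± 2.30 CPM in Y665H females, and Kiss1r at 5.30 ± 0.685 and 2.61 ± 0.400 CPM. For Tyk2 they were Myo9b (0.964), Mkl1 (0.948) and Matk (0.946). Osmr had looser matches in Usp31 (0.82), Vwa5a (0.793) and Ywhaq (0.788). Among the members themselves the highest correlation after Csf2ra with Tyk2 was that of Il6ra with Lifr (0.845), and Lepr with Csf2ra was lowest (-0.424). These values describe 24 libraries that differ together in genotype, sex, depth and marker sums, and no test was made.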

How the data were processed

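Total RNA from 24 adipose libraries was sequenced. Per the labels' protocols, ribosomal RNA was removed and stranded paired-end libraries were made. The submitters' processing notes name FastQC 0.11.9, Trimmomatic 0.36, STAR, SAMtools 1.9, Picard 2.9.2, HTSeq 0.9.1 and the build mm10, with no roles. The annotation and the strand setting are not given in the sources used here. The deposited files hold raw read counts for 24421 gene symbols per library, and 5 entries that name no gene (24.8 to 39.7% of all counts) were left out. The ribosomal gene Rn45s held 3.27 to 15.0% of gene counts.

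Libraries were grouped by their titles. Counts were tested with edgeR 4.0.16 (limma 3.58.1, R 4.3.3) by its quasi-likelihood test, with TMM scaling and the filterByExpr filter, on the 8 libraries of the 2 groups compared or the 16 of an interaction, with Benjamini-Hochberg adjustment over all tested genes. The scripts were tested on simulated data. CPM were computed from gene-symbol totals without TMM. Single ratios were tested with an exact permutation test over libraries. Library pairs within a group differed by more than sampling noise (chi-square per degree of freedom at least 16.4 over 36 pairs). The alternatives were other scalings, no filter, DESeq2 1.42.0, a fit of all 24 libraries, the replicate number as a block, removal of Rn45s and leaving out each library. Of the 4 same-numbered pairs per comparison, at most 2 had deviations correlated above 0.1. The lowest correlation in each comparison was -0.371 to -0.0227, and the highest of all was 0.722, between the male mutants. The best match had the same number for 3 of 4 pairs between WT sexes and 2 of 4 between the male mutants. In the other comparisons this held for 0 or 1 of 4. Whether same-numbered libraries belong together was not tested.

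The members and the lists were chosen with earlier results of these data known. All members are named; of each list at most 4 called genes with the smallest p per comparison, and the ligands of the member receptors; and the 3 genes most like each member called against WT or between the mutants. Promoter windows are from RefSeq (GRCm38.p6), and positions and exon lengths of genes from GENCODE M21. Protein sequences were not used here.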

Additional observations from a re-analysis of the deposited data

Results flagged for a closer look

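In 4 of 66 combinations of group and quantity, 1 of 4 libraries lay far from the other 3 by Dixon's test at its 95% value. Chance gives about 1 in 20. Prlr was at 25.8 CPM in WT female 1, with the others at 34.8 to 35.9 CPM. Prlr was at 82.8 CPM in Y665F male 4, with the others at 33.0 to 35.2 CPM, and that library also had the highest epithelium (605 CPM), epididymis (960 CPM) and muscle (270 CPM) sums of its group. Lepr was at 10.3 CPM in WT male 3, with the others at 6.16 to 6.83 CPM. Jak2 was at 62.1 CPM in Y665H male 2, with the others at 76.6 to 79.4 CPM. In the edgeR tests of the report with all libraries, none of these 3 genes was called. Jak2 was called between WT sexes under library totals and in a fit of all 24 libraries (adjusted p = 0.0387 and 0.0419).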

How the results depend on the processing

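No member changed direction among called results in any alternative. Counts of called members changed as follows. Where given above, the share of all genes called changed with the setting too. The counts below stand without that share and do not describe the members alone. With DESeq2, 3 were called for Y665H against WT in females, 3 for Y665F against WT in males, 4 between WT sexes and 2 for the Y665H interaction. In a fit of all 24 libraries the counts were 2, 3 and 4 for the comparisons before the interaction, and Osmr between the mutants in females was not called (adjusted p = 0.0747). With library totals 6 were called between the mutants in females, and Lifr between WT sexes was lost (adjusted p = 0.0625). With the replicate block, 0 were called for Y665H against WT in females (Csf2ra adjusted p = 0.0814), 0 between the mutants in males (Csf2ra 0.0828, Tyk2 0.0834) and 0 between WT sexes (Lifr 0.0641). Leaving out 1 library gave 0 to 3 for Y665H against WT in females, 0 to 2 for Y665F against WT in males, 2 to 6 and 0 to 3 between the mutants in females and males, 0 to 5 between WT sexes and 0 to 2 for the Y665H interaction. The causes were not tested. Library totals moved the all-gene median log2 fold change in Y665F against WT females from 0.02 to 0.15, between WT sexes from 0.04 to 0.19 and in the Y665F interaction from -0.06 to -0.24. Between the mutants in males, DESeq2 and library totals each gave 3 members in place of 2, with Csf2rb added. Library totals also moved the share of all calls that were lower from 30.7 to 11.9% in Y665F against WT females and from 45.4 to 25.9% between WT sexes. DESeq2 size factors, no filter on low counts and removal of Rn45s moved no count of members by over 1.5 times. Each member had at least 55 counts in every library, while Il6, Csf2 and Prl were too low to test.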
